A study of Mus musculus with 6 samples.

Results

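The genes described here are 32 markers of microglia and of the other macrophages of the brain, chosen by symbol from a list of homeostatic, activation and border macrophage genes. All 32 were found, 1 row each, among the 31838 genes of the deposited table, and all 32 were among the 20428 genes with enough counts to be tested. Polyadenylated RNA had been sequenced from the hippocampus of wild type C57BL/6 mice aged 4 months. In one group, 3 libraries were from mice that received 50 mg/kg/day of BBP, butyl benzyl phthalate, which softens plastics. In the other, 3 libraries were from control mice that received corn oil. The question here is how macrophage transcripts of the hippocampus compared between these groups. Nothing in the labels states that the libraries are of separate animals, so p-values measure only the spread among libraries, which may be technical.

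Microglia are the resident macrophages of the brain parenchyma. They depend on signalling through the receptor encoded by Csf1r, survey the tissue with purinergic and chemokine receptors, and clear debris through phagocytic receptors that signal by way of small adaptor proteins. When they react to injury they lower several of the homeostatic genes and raise lysosomal and lipid-handling genes. A separate population of macrophages lives at the borders of the brain, around vessels and in the meninges and choroid plexus, and carries Mrc1 and Cd163.

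No microglia or macrophage gene passed the test between BBP and corn oil, and most estimates lay slightly above 0. Of the 32 genes, 29 had a log2 fold change (BBP over corn oil) above 0, with a median of 0.21, against 52.4% of all tested genes, whose median was 0.011. At an adjusted p under 0.05 in edgeR's quasi-likelihood test 0 of 32 passed, as did 0 of 20428 genes in all, a background of 0%. At an unadjusted p under 0.05 edgeR again gave 0 of 32, against 3.35% of all tested genes. DESeq2 gave 0 of 32 at either threshold, against 0.0196% of all tested genes at the adjusted and 3.87% at the unadjusted one. In limma on the FPKM values, 0 of 25 passed adjusted (background 0%) and 1 of 25, Laptm5, unadjusted, against 2.98% of genes on log2(FPKM + 1) and 2.95% on log2(FPKM + 0.1). The median was 0.14 without BBP library 2. It was 0.12 in limma on log2(FPKM + 1) and 0.14 on log2(FPKM + 0.1), where 42.5% and 42.1% of all genes lay above 0. In bulk tissue, fewer or more cells of a type cannot be told apart from less or more RNA per cell.

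For 29 of the 32 genes the whole 95% interval was narrower than 2-fold up or down. The other 3 were Mrc1, Cd163 and Itgax, the genes with the lowest counts, whose intervals reached from -1.36 to 2.24 on the log2 scale. The 3 BBP values lay above all 3 corn oil values in deposited FPKM (fragments scaled by gene length and library depth) for 2 genes, Laptm5 and Olfml3, and below them for 0 genes, against 4.40% and 5.25% of all tested genes. After scaling of the counts by edgeR (TMM), the counts of 2 genes, Laptm5 and Trem2, lay above, against 5.10% of all tested genes, and those of 0 genes lay below, against 5.32%. Both counts, 2 of 32, are near the background.

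**Figure D1:**
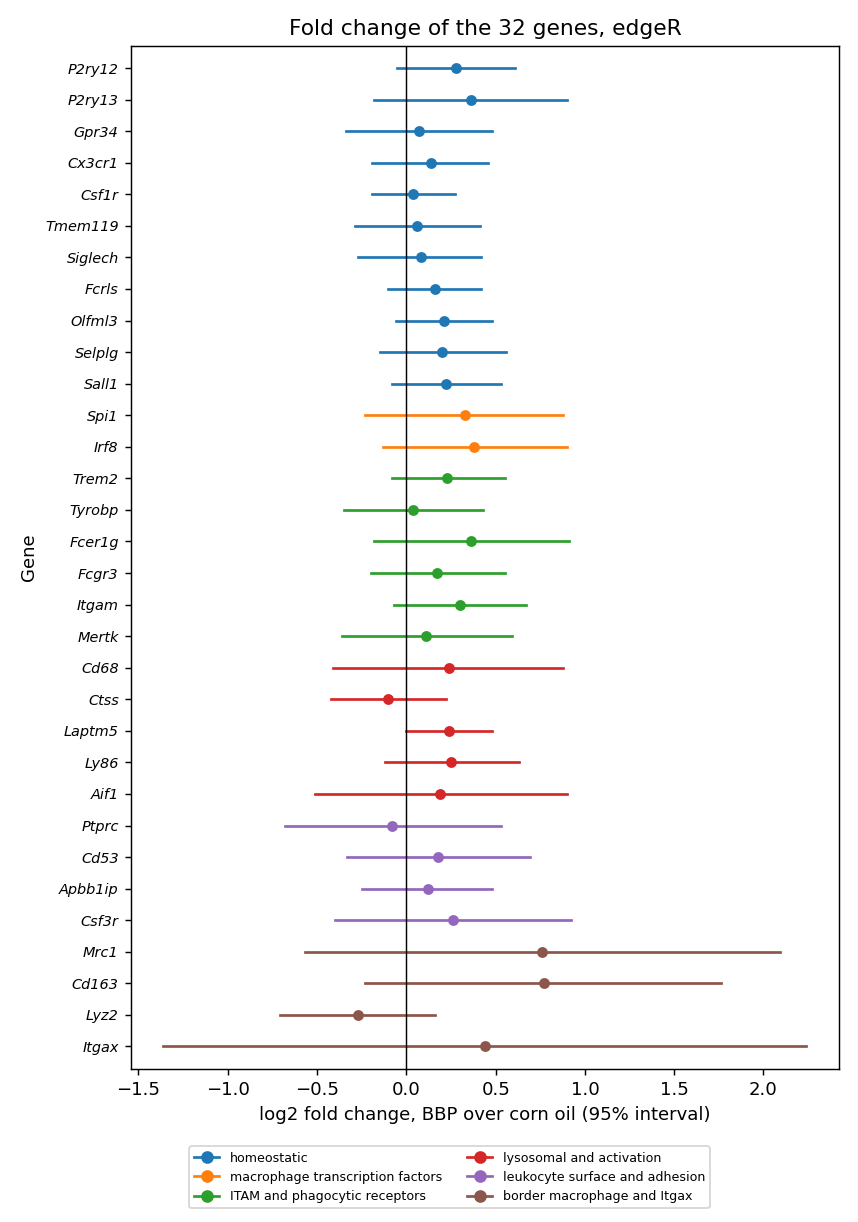
Log2 fold change (BBP over corn oil, horizontal axis) of each of the 32 genes in edgeR, with points for the estimate and lines for its 95% interval, coloured by role. The points of 29 genes lie right of 0, and the intervals of Mrc1, Cd163 and Itgax are the widest.

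The deposited counts summed to 62477604 to 67270275 in the BBP libraries and to 62747522 to 68422361 in the corn oil libraries. Low counts clustered at 4 and 8, so about 4 counts may stand for 1 fragment, a ratio not known from the sources used here. The libraries did not all have the same tissue profile. BBP library 1 held high levels of striatum neuron markers, with a sum of 172 FPKM over 8 genes against 37.8 to 82.8 in the other 5 libraries. It held low levels of hippocampal neuron markers, with 119 FPKM over 10 genes against 210 to 274 in the other 5. The mitochondrial share of counts was 11.5% in BBP library 2 and between 7.11% and 8.57% elsewhere. The median of 8 choroid plexus markers, in log2 CPM relative to the corn oil mean, was -0.59, -0.15 and -0.53 in BBP libraries 1 to 3 and -0.57, -0.15 and 0.71 in corn oil libraries 1 to 3, so that corn oil library 3 stood apart. The part of these differences in the results on macrophage genes was not tested.

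By level, Ctss, the lysosomal protease cathepsin S, stood first of the 32 genes with a mean of 42.6 FPKM over the 6 libraries. Tyrobp (12.7), Csf1r (11.5), P2ry12 (9.78), Mertk (8.67) and Tmem119 (7.56) followed. The means of Tyrobp and Csf1r, and those of Mertk and Tmem119, differed by less than the SD between BBP libraries of the genes themselves. Of the 32 genes, 25 had a mean of at least 1 FPKM. Spi1 (0.941), Apbb1ip (0.654), Irf8 (0.563), Mrc1 (0.153), Ptprc (0.142), Cd163 (0.108) and Itgax (0.0216) lay under that. The level of Ptprc rests on the length the authors assigned, since its 189 mean counts made 1333 counts per FPKM, against 48.1 for Tyrobp and 535 for Apbb1ip, the extremes of the other 31 genes. Ctss alone took 19.9% to 27.3% of the summed FPKM of the 32 genes in the BBP libraries and 26.0% to 27.4% in the corn oil libraries.

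The profile of a resident, homeostatic population was present in every library. Each of the 11 homeostatic genes had at least 397 counts in each library, and all 11 had a log2 fold change above 0, from 0.04 for Csf1r to 0.36 for P2ry13, with a median of 0.16. None passed the test. Relative to the corn oil mean, the median of the 11 genes on the log2 CPM (counts scaled to library size) scale was 0.22, 0.22 and 0.07 in BBP libraries 1 to 3 and -0.06, -0.05 and 0.10 in corn oil libraries 1 to 3. Corn oil library 3 thus stood above BBP library 3, and the groups overlapped.

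P2ry12, the ADP receptor that directs microglial processes to sites of injury (chromosome 3, 59216272 to 59262871, mm10), had 9.80, 11.7 and 10.4 FPKM in BBP libraries 1 to 3 and 7.53, 9.09 and 10.2 FPKM in corn oil libraries 1 to 3. BBP library 1 lay below corn oil library 3. Its log2 fold change was 0.28 ± 0.14 (SE), with a 95% interval of -0.05 to 0.61 and an adjusted p of 0.953 in edgeR. Its neighbour P2ry13, another ADP receptor gene 5.39 kb away on chromosome 3, had 3.81, 4.27 and 2.75 FPKM in the BBP libraries and 2.87, 2.24 and 3.51 FPKM in the corn oil libraries. BBP library 3 was the lowest BBP library for P2ry13 and lay between corn oil libraries 1 and 2. For P2ry13 the log2 fold change was 0.36 ± 0.23 (SE, adjusted p = 0.953 in edgeR). Both genes lie inside Med12l, which runs on the opposite strand at a mean of 2.72 FPKM, and the strand setting of the counting is not given in the sources used here.

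Olfml3, a secreted protein gene typical of microglia, had 2.69, 2.90 and 2.62 FPKM in the BBP libraries and 2.31, 2.32 and 2.59 FPKM in the corn oil libraries. The groups did not overlap in FPKM, and they did overlap in TMM-scaled counts. The log2 fold change was 0.21 ± 0.12 (SE, adjusted p = 0.953 in edgeR). Sall1, the zinc-finger transcription factor that maintains microglial identity, had 2.89, 2.99 and 2.65 FPKM in the BBP libraries and 2.75, 2.21 and 2.48 FPKM in the corn oil libraries. Its log2 fold change was 0.22 ± 0.13 (SE, adjusted p = 0.953 in edgeR), and BBP library 3 lay below corn oil library 1.

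Csf1r, the receptor for the growth factors encoded by Csf1 and Il34, averaged 11.6 ± 1.79 FPKM in BBP and 11.4 ± 0.244 FPKM in corn oil (SD, n = 3 each). The estimate of 0.04 (log2 fold change) had a 95% interval of -0.19 to 0.27. Tmem119, a membrane protein gene used to mark microglia, averaged 7.68 ± 1.60 FPKM in BBP and 7.43 ± 0.827 FPKM in corn oil. Cx3cr1, the fractalkine receptor, averaged 6.18 ± 1.15 FPKM in BBP and 5.71 ± 0.366 FPKM in corn oil. For these 3 genes the BBP libraries spread over a wider range than the corn oil libraries did, with BBP library 2 the lowest of all 6 for Csf1r and Tmem119. The deposited span of Cx3cr1 overlaps other genes, among them Gorasp1 and Csrnp1 on the same strand, at means of 8.33 and 2.75 FPKM. Wdr48, on the opposite strand at 6.78 FPKM, overlaps it as well, and reads may be shared.

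Of the remaining homeostatic genes, Gpr34, a lysophospholipid receptor gene inside Cask on the opposite strand, averaged 3.79 ± 0.766 FPKM in BBP and 3.65 ± 0.511 FPKM in corn oil. Siglech, a sialic acid-binding lectin, averaged 2.61 ± 0.159 and Fcrls, an Fc receptor-like scavenger gene, 6.55 ± 0.423 FPKM in BBP, against 2.51 ± 0.411 and 5.95 ± 0.426 FPKM in corn oil. Selplg, the ligand of P-selectin, averaged 5.86 ± 0.834 FPKM in BBP and 5.19 ± 0.645 FPKM in corn oil. The 4 log2 fold changes ran from 0.07 for Gpr34 to 0.20 for Selplg.

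**Figure D2:**
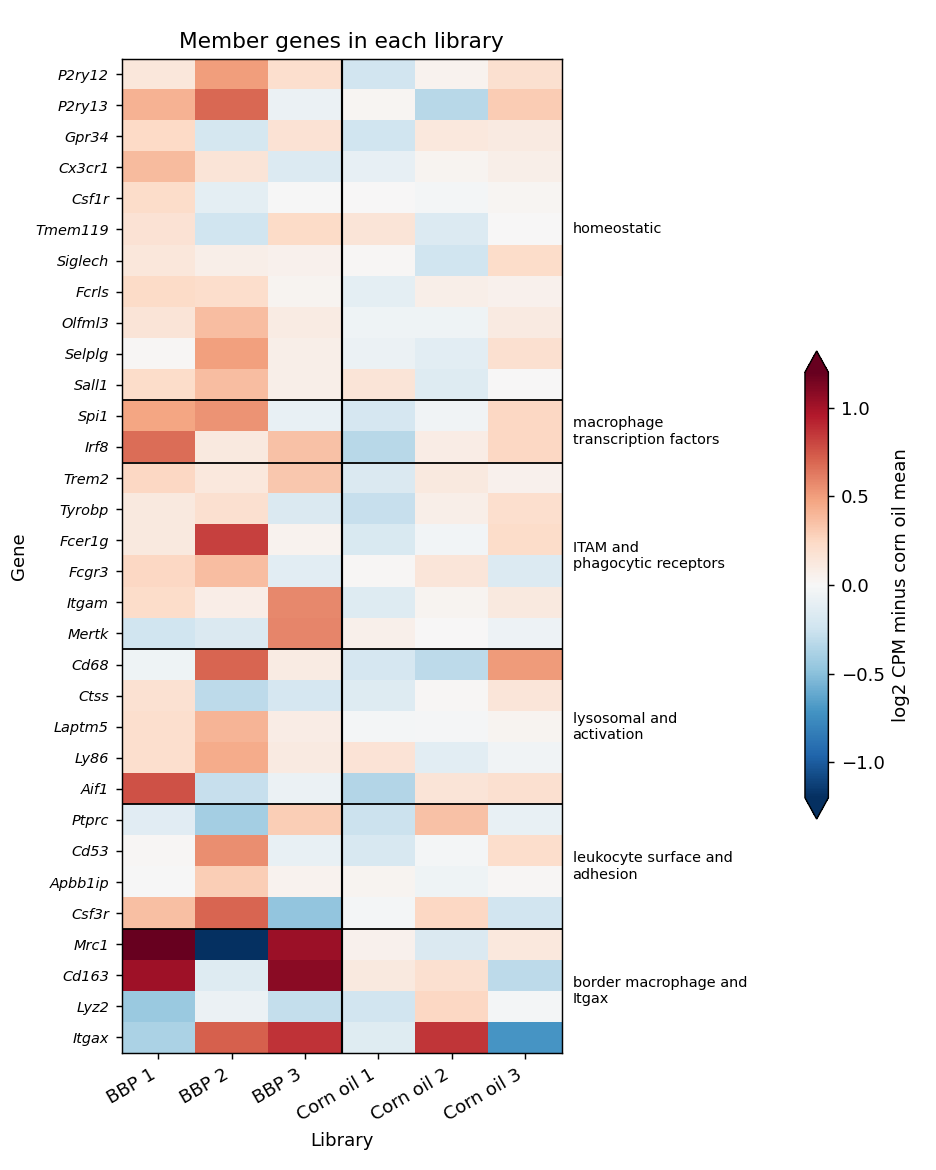
Log2 CPM of each of the 32 genes (rows, grouped by role) in each library (columns) minus the mean of the corn oil libraries. Red is higher and blue lower than that mean; BBP library 2 is the highest of all 6 libraries in FPKM for 13 genes and the lowest for 8, and Mrc1 and Cd163 are high in BBP libraries 1 and 3 only.

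Spi1 and Irf8 encode transcription factors that macrophages share. Spi1 encodes PU.1, which binds purine-rich sequences in myeloid promoters and enhancers, and Irf8 is one of its partners. Irf8 had 0.781, 0.492 and 0.633 FPKM in the BBP libraries and 0.382, 0.516 and 0.575 FPKM in the corn oil libraries, so that BBP library 2 lay below corn oil libraries 2 and 3. Its log2 fold change was 0.38 ± 0.22 (SE, adjusted p = 0.953 in edgeR). Spi1 had 1.17, 1.14 and 0.803 FPKM in the BBP libraries and 0.722, 0.805 and 0.997 FPKM in the corn oil libraries. BBP library 3 lay within the corn oil range, and the log2 fold change was 0.33 ± 0.24 (SE, adjusted p = 0.953 in edgeR).

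The core of the PU.1 motif was looked for in the promoters of the 32 genes, because PU.1 acts on many of them. RefSeq promoters (GRCm38.p6, 250 bases before to 50 after the start) were found for 26 of the 32 genes, 31 promoters in all. Gpr34, Csf1r, Selplg, Spi1, Tyrobp and Tmem119 had none in the table. For 26 of the 31 promoters, the bases after the start lay in a transcript of the GENCODE M21 annotation on the same strand. The letters GAGGAAGT, read on both strands, were in 3 of the 31 promoters (9.68%), those of Apbb1ip, Cd53 and Ctss, against 3.20% of all 32851 promoters. The shorter AGGAAGT, which every match of the longer motif contains, was in 10 of the 31 (32.3%), from 9 genes, against 9.35% of all promoters. The 6 further genes were Fcrls, Lyz2, Mrc1, P2ry12, Ptprc and Sall1. A match is a description of these letters and not evidence of binding.

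The 3 promoters with the longer motif, and that of P2ry12, are shown from 70 bases before to 50 after the start to place the match, in lower case with the match in capitals. In Apbb1ip, Cd53 and Ctss the capitals are GAGGAAGT on the opposite strand, beginning 5, 6 and -2 bases from the start. In P2ry12 they are AGGAAGT on the gene's strand, beginning -52 bases from the RefSeq start. The deposited P2ry12 gene spans 59216272 to 59262871, so the whole P2ry12 window lies outside the gene that was counted.
Apbb1ip, chr2:22774257-22774376, plus strand: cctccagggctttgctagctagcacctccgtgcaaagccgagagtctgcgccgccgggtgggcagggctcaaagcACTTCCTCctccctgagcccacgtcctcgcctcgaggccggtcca
Cd53, chr3:106790100-106790219, minus strand: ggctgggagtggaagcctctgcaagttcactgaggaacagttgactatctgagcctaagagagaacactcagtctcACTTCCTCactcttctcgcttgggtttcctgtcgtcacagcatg
Ctss, chr3:95526716-95526835, plus strand: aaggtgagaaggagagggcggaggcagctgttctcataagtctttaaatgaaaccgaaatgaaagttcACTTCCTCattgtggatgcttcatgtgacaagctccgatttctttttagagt
P2ry12, chr3:59262936-59263055, minus strand: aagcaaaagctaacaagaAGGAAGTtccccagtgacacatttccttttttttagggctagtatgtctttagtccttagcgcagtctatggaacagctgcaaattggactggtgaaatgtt
Between BBP and corn oil, these genes had log2 fold changes of 0.12 ± 0.16 for Apbb1ip, 0.18 ± 0.22 for Cd53, -0.10 ± 0.14 for Ctss and 0.28 ± 0.14 for P2ry12 (SE).

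Receptors for debris and immune complexes, and the adaptors that carry their immunoreceptor tyrosine-based activation motif (ITAM), had log2 fold changes above 0 for all 6 genes, with a median of 0.20. Itgam, the integrin chain of complement receptor 3, had 2.29, 1.93 and 2.98 FPKM in the BBP libraries and 1.76, 2.00 and 2.14 FPKM in the corn oil libraries. BBP library 2 lay within the corn oil range. Its log2 fold change was 0.30 ± 0.16 (SE, adjusted p = 0.953 in edgeR), and its reads may be shared with the predicted gene Gm49368, which covers 99.9% of it on the same strand. Trem2, the lipid-sensing receptor of microglia, had 1.99, 1.69 and 2.13 FPKM in the BBP libraries and 1.48, 1.81 and 1.73 FPKM in the corn oil libraries. BBP library 2 lay within the corn oil range in FPKM and above it in TMM-scaled counts. Its log2 fold change was 0.23 ± 0.14 (SE, adjusted p = 0.953 in edgeR).

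Tyrobp and Fcer1g encode the ITAM adaptors, and they differed in their library pattern. Tyrobp, the partner of Trem2, averaged 12.8 ± 1.27 FPKM in BBP and 12.6 ± 2.12 FPKM in corn oil (SD, n = 3 each), a log2 fold change of 0.04. Fcer1g, the common gamma chain of Fc receptors, had 6.66, 10.1 and 6.39 FPKM in the BBP libraries and 5.34, 5.93 and 7.12 FPKM in the corn oil libraries. BBP library 2 alone stood above corn oil library 3, and the log2 fold change was 0.36 ± 0.24 (SE). Fcgr3, an activating Fc receptor, averaged 6.04 ± 0.843 FPKM in BBP and 5.46 ± 0.562 FPKM in corn oil. Its inhibitory relative Fcgr2b, which was picked after its values were seen, had 0.552, 0.491 and 0.466 FPKM in the BBP libraries and 0.341, 0.254 and 0.356 FPKM in the corn oil libraries. The groups did not overlap for Fcgr2b (log2 fold change 0.69 ± 0.22 SE, adjusted p = 0.953 in edgeR), and reads that Fc receptor genes have in common may be split between them.

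Mertk, a receptor for apoptotic cells that astrocytes carry as well, had 7.12, 6.94 and 12.8 FPKM in the BBP libraries and 8.69, 8.39 and 8.05 FPKM in the corn oil libraries. BBP library 3 was at 1.53 times the corn oil mean and the other BBP libraries were below every corn oil library. The Mertk estimate of 0.11 (log2 fold change) became -0.20 without BBP library 3. In the same library Tgfbr1, a receptor for the TGF-beta on which microglia depend, had 0.265 FPKM, against 2.55 to 3.28 FPKM in the other 5. This is 128 counts against 1170 to 1508. The gene was in the list of other microglia genes, and it was named after its values were seen. Its partner Tgfbr2 had 1.74, 1.54 and 1.64 FPKM in the BBP libraries and 1.30, 1.35 and 1.48 FPKM in the corn oil libraries.

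Among lysosomal and activation genes, 4 of 5 had a log2 fold change above 0 and 0 passed the test in edgeR. Laptm5, a lysosomal membrane protein gene of blood-derived and microglial cells, had the smallest p of the 32 genes (chromosome 4, 130913125 to 130936141, mm10). It had 7.51, 8.07 and 7.06 FPKM in the BBP libraries and 6.39, 6.44 and 6.70 FPKM in the corn oil libraries. All 3 BBP libraries stood above all 3 corn oil libraries. The log2 fold change was 0.24 ± 0.11 (SE), or 1.18-fold, with an adjusted p of 0.953 in edgeR (unadjusted p = 0.0538). It was 0.15 without BBP library 2. Ly86, a partner of a Toll-like receptor homologue, had 1.68, 1.85 and 1.60 FPKM in the BBP libraries and 1.63, 1.33 and 1.42 FPKM in the corn oil libraries. Its log2 fold change was 0.25 ± 0.16 (SE, adjusted p = 0.953 in edgeR), and BBP library 3 lay just below corn oil library 1.

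Cd68, the lysosomal glycoprotein used to stain phagocytic macrophages, had 4.86, 7.65 and 5.46 FPKM in the BBP libraries and 4.38, 4.03 and 7.24 FPKM in the corn oil libraries. One library of each group was high. Aif1, which encodes the calcium-binding microglial marker Iba1, had 3.17, 1.41 and 1.78 FPKM in the BBP libraries and 1.44, 2.06 and 2.12 FPKM in the corn oil libraries. BBP library 1 alone was above the corn oil range, and the log2 fold change of 0.19 became -0.19 without it. Ctss averaged 40.9 ± 8.66 FPKM in BBP and 44.3 ± 4.74 FPKM in corn oil (SD, n = 3 each). It was 1 of the 3 genes with a log2 fold change below 0, at -0.10 ± 0.14 (SE).

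**Figure D3:**
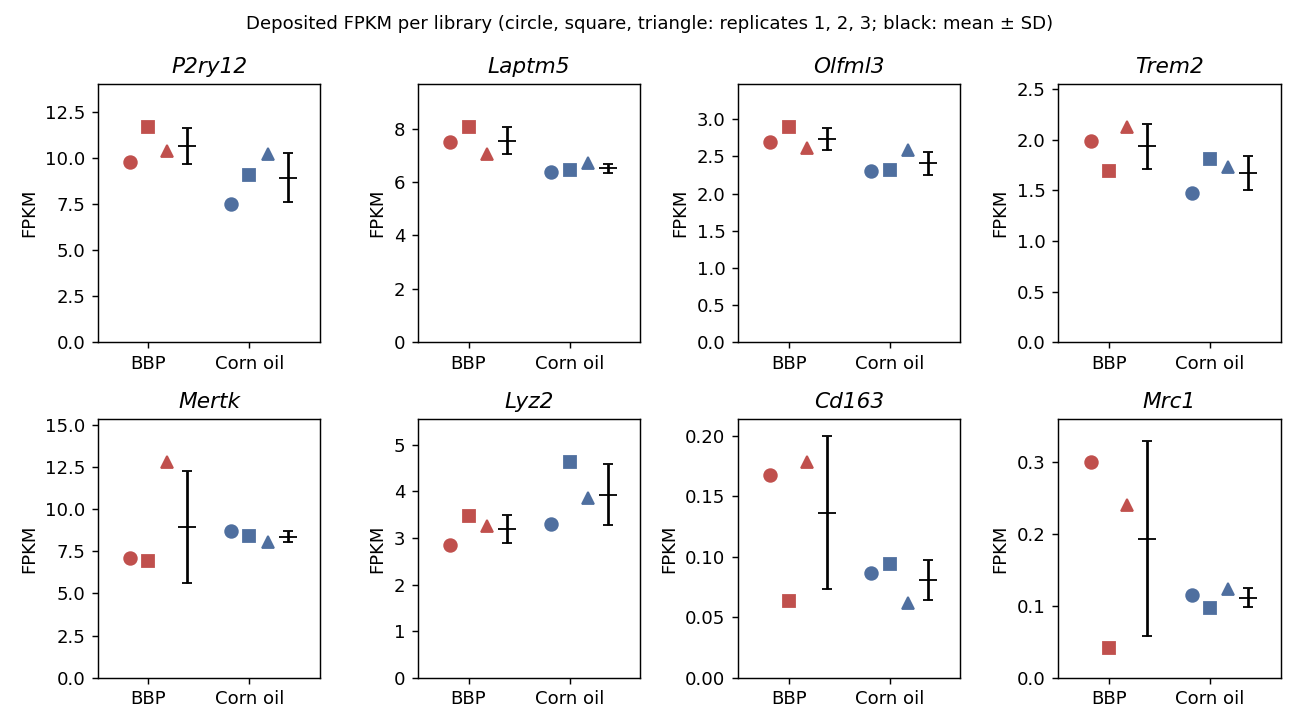
Deposited FPKM (vertical axis, from 0) of 8 genes in the BBP libraries (red, left) and the corn oil libraries (blue, right), with replicates 1, 2 and 3 as circle, square and triangle and the mean ± SD in black. Laptm5 and Olfml3 do not overlap between the groups, Mertk has 1 high BBP library at 12.8, and Cd163 and Mrc1 have 2 high BBP libraries and 1 low one.

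The genes of leukocytes in general were low or overlapped between groups. Ptprc, the CD45 phosphatase of all leukocytes, averaged 0.137 ± 0.0399 FPKM in BBP and 0.147 ± 0.0336 FPKM in corn oil (SD, n = 3 each). Csf3r, the receptor for granulocyte colony-stimulating factor, had 2.07, 2.43 and 1.17 FPKM in the BBP libraries and 1.57, 1.9 and 1.37 FPKM in the corn oil libraries. BBP library 3 was the lowest of all 6, the other BBP libraries were the highest, and the log2 fold change was 0.26 ± 0.29 (SE, adjusted p = 0.954 in edgeR). Cd53, a tetraspanin, had 2.56, 3.49 and 2.41 FPKM in the BBP libraries and 2.21, 2.47 and 2.95 FPKM in the corn oil libraries. Apbb1ip, an adaptor in integrin activation, averaged 0.675 ± 0.0484 FPKM in BBP and 0.633 ± 0.0221 FPKM in corn oil.

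Border macrophage genes gave the largest estimates and the least even ones. Mrc1, the mannose receptor (chromosome 2, 14229392 to 14332057), had 0.300, 0.0409 and 0.240 FPKM in BBP libraries 1 to 3 and 0.115, 0.0967 and 0.123 FPKM in corn oil libraries 1 to 3. These are 136, 19 and 114 counts in BBP and 53, 45 and 61 counts in corn oil. BBP libraries 1 and 3 stood at 2.69 and 2.16 times the corn oil mean, and BBP library 2 at 0.367 times. The log2 fold change was 0.76 ± 0.58 (SE, 95% interval -0.57 to 2.09, adjusted p = 0.953 in edgeR). It was 1.23 without BBP library 2 and 0.31 without BBP library 1, with adjusted p of 0.981 and 0.906.

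Cd163, the scavenger receptor for haemoglobin bound to haptoglobin, lies on chromosome 6 from 124304656 to 124330527 (mm10). It had 0.167, 0.0633 and 0.178 FPKM in the BBP libraries and 0.0863, 0.0936 and 0.0620 FPKM in the corn oil libraries, or 66, 26 and 73 counts in BBP and 34, 36 and 27 counts in corn oil. BBP libraries 1 and 3 were above the corn oil range and BBP library 2 was within it. Cd163 had a log2 fold change of 0.77 ± 0.43 (SE, adjusted p = 0.953 in edgeR). With 1 library left out the estimate lay between 0.56, without BBP library 3, and 1.08, without BBP library 2.

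Lyz2, the lysozyme gene of myeloid cells, had 2.86, 3.47 and 3.25 FPKM in the BBP libraries and 3.31, 4.63 and 3.86 FPKM in the corn oil libraries. BBP library 2 lay above corn oil library 1, and the log2 fold change was -0.27 ± 0.19 (SE, adjusted p = 0.953 in edgeR). Its close copy Lyz1 had 0 to 8 counts per library. Itgax, an integrin chain of dendritic cells and of reactive microglia, had 4, 10 and 13 counts in BBP and 5, 12 and 3 counts in corn oil, or about 1 to 3 fragments per library at 4 counts per fragment, which is too few to compare. It lies 11.1 kb from Itgam on chromosome 7.

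BBP library 2 also held the lowest FPKM for many other border macrophage genes, as it did in an unrelated list. Of 14 such genes 11 were tested, 6 above 0 and 5 below, with a median log2 fold change of 0.12 and 0 passing the test. BBP library 2 had the lowest FPKM of all 6 libraries for 7 of the 11 and the highest for 1. BBP libraries 1 and 3 had the lowest for 0. Among 10 tested ligands and inhibitory partners BBP library 2 was lowest for 6 and highest for 3, so this was not particular to border macrophage genes. The share over all tested genes was not counted. FPKM was not scaled by TMM, whose factor was 0.9481 in BBP library 2 and 1.007 to 1.013 elsewhere. Several of the 7 were near the floor. In BBP library 2, Pf4, Lyve1, Cbr2, H2-Ab1, H2-Aa, Cd74 and Stab1 had 5, 7, 13, 33, 34, 114 and 502 counts. Of the 14 genes, 2 had a mean of at least 1 FPKM. F13a1, the coagulation factor XIII subunit of these macrophages, had 0.127, 0.0563 and 0.168 FPKM in the BBP libraries and 0.0457, 0.0667 and 0.0922 FPKM in the corn oil libraries. Cd209f, a lectin, was highest in BBP library 2, with 20, 30 and 6 counts in BBP libraries 1 to 3. It had 14 counts in corn oil library 2 and was listed at 0 in corn oil libraries 1 and 3. Beside these, the summed FPKM of 12 endothelial and mural cell markers was 107, 86 and 98.2 in BBP libraries 1 to 3 and 88.3, 89.5 and 96.5 in corn oil libraries 1 to 3. Of these 12 markers, 5 had all BBP FPKM above all corn oil FPKM and 0 had them below, against 4.40% and 5.25% of all tested genes. The summed FPKM of 5 erythrocyte genes was 246, 269 and 399 in BBP and 170, 276 and 200 in corn oil. The part of these in the Mrc1 and Cd163 values was not tested.

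Markers of cells that enter from blood were mostly too low to test. Of 6 monocyte markers 2 were tested, and Ccr2, the receptor that defines inflammatory monocytes, had at most 0.0184 FPKM in BBP and 0.0311 FPKM in corn oil. Ly6c2 had 0.359, 0.0562 and 0.0625 FPKM in the BBP libraries and 0.385, 0.448 and 0.456 FPKM in the corn oil libraries (log2 fold change -1.40 ± 0.64 SE, adjusted p = 0.953 in edgeR), and the other tested marker, the integrin chain Itgal, had a log2 fold change of 0.54 ± 0.40 (SE). Of 9 neutrophil markers 8 were in the table and S100a9 alone was tested, at 0.429, 0.280 and 0.957 FPKM in BBP and 0.264, 0.537 and 0 FPKM in corn oil. Of 17 lymphocyte markers 5 were tested. Trbc2 had 13.6 FPKM and Ighm 18.7 FPKM in BBP library 1, against 0.217 to 0.751 and 3.73 to 8.85 FPKM in the other 5 libraries. All 5 tested lymphocyte genes were highest in that library. Cd4 had 0.959 FPKM and Trbc1 0.911 FPKM there, against 0.0313 to 0.12 and 0 to 0.177 FPKM in the other 5, while Cd3e, Cd3d and Cd3g were listed at 0 in BBP library 1. Among the 32 genes, 9 were highest in BBP library 1. These included both macrophage transcription factors, Spi1 and Irf8, and 0 of the 4 leukocyte surface and adhesion genes. The part of blood cells in the values of the 32 genes was not tested.

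Of 39 microglia genes outside the 32, 26 were above 0 and 13 below, with a median log2 fold change of 0.18 and 0 passing the adjusted test in edgeR. At an unadjusted p under 0.05 there were 4, all higher in BBP, where 1.98% of all tested genes were higher at that threshold. The BBP values lay above all corn oil values for 6 of the 39 in FPKM and 7 in TMM-scaled counts, and below them for 1 and 0, against 4.40%, 5.10%, 5.25% and 5.32% of all tested genes. The smallest p belonged to Abi3, an adaptor in actin remodelling. It had 2.85, 4.26 and 2.72 FPKM in the BBP libraries and 2.03, 2.04 and 2.17 FPKM in the corn oil libraries, with a log2 fold change of 0.69 ± 0.21 (SE, adjusted p = 0.953 in edgeR). All 3 BBP libraries stood above all corn oil libraries. Cd37, a tetraspanin, had 1.24, 0.986 and 1.25 FPKM in the BBP libraries and 0.993, 0.759 and 0.699 FPKM in the corn oil libraries, with a log2 fold change of 0.52 ± 0.20 (SE, adjusted p = 0.953 in edgeR). The abundant complement genes C1qa, C1qb and C1qc had log2 fold changes of 0.00, -0.01 and 0.04.

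The list of disease-associated microglia genes was evenly split in sign. Of 23 disease-associated microglia genes 22 were tested, 11 above 0 and 11 below, with a median log2 fold change of -0.01 and 0 passing the test. B2m, the light chain of class I histocompatibility molecules, had 116, 141 and 100 FPKM in the BBP libraries and 94.9, 87.2 and 103 FPKM in the corn oil libraries (log2 fold change 0.36 ± 0.15 SE, adjusted p = 0.953 in edgeR). BBP library 3 lay below corn oil library 3. Lpl, a lipase raised in lipid-laden microglia, averaged 2.05 ± 0.386 FPKM in BBP and 2.56 ± 0.378 FPKM in corn oil. Apoe stood at a log2 fold change of 0.03 and the lectin receptor gene Clec7a at -0.65 ± 0.51 (SE). Cst7, which was not tested, had at most 0.249 FPKM in any library. Levels in this list were very uneven. Apoe and Fth1 had means of 539 and 563 FPKM, while Clec7a had 10 to 25 and Cybb 6 to 34 counts per library. Which cells gave these transcripts cannot be told in bulk tissue, so the split in sign does not give the state of microglia.

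Inflammatory mediators were at low levels, with 6 of 24 genes at a mean of at least 1 FPKM. Of the 20 tested, 13 were above 0 and 7 below, with a median log2 fold change of 0.13 and 0 passing the test. Tlr3, a receptor for double-stranded RNA, had 1.92, 1.80 and 1.44 FPKM in the BBP libraries and 1.37, 1.61 and 1.25 FPKM in the corn oil libraries (log2 fold change 0.31 ± 0.17 SE). Rela, a subunit of NF-kappa B, had a log2 fold change of 0.30 ± 0.17 (SE). Tnf had 0.0325, 0.123 and 0 FPKM in the BBP libraries and was listed at 0 in all corn oil libraries, and Il1b averaged 0.0809 FPKM in BBP and 0.118 FPKM in corn oil.

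Some of the ligands that act on the receptors above come from neurons and astrocytes. Of 11 ligands and inhibitory partners 10 were tested, 7 above 0 and 3 below, with a median log2 fold change of 0.08 and 0 passing the test. Cx3cl1, the neuronal ligand of Cx3cr1, had 162, 141 and 114 FPKM in the BBP libraries and 116, 112 and 122 FPKM in the corn oil libraries. BBP library 3 lay within the corn oil range, and the log2 fold change was 0.28 ± 0.14 (SE, adjusted p = 0.953 in edgeR). Tgfb1 had 1.14, 1.22 and 0.680 FPKM in the BBP libraries and 0.726, 0.704 and 0.825 FPKM in the corn oil libraries (log2 fold change 0.46 ± 0.25 SE). The Csf1r ligands Csf1 and Il34 had log2 fold changes of 0.15 ± 0.17 and -0.05 ± 0.13 (SE), and Gas6, a ligand of Mertk, had 0.04 ± 0.08 (SE).

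**Figure D4:**
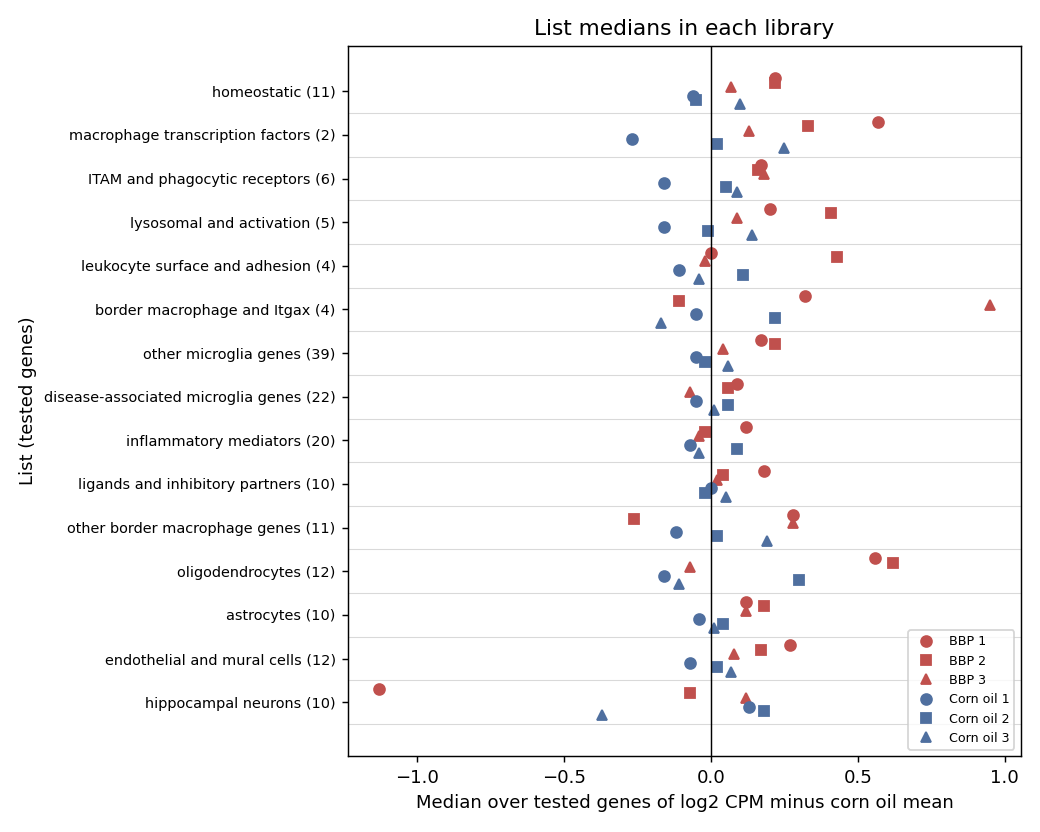
Median over the tested genes of each list (rows, with the number of genes) of log2 CPM minus the corn oil mean, for BBP libraries (red) and corn oil libraries (blue), with replicates 1, 2 and 3 as circle, square and triangle. The homeostatic medians of the BBP libraries are 0.22, 0.22 and 0.07, those of the disease-associated list 0.09, 0.06 and -0.07, and the hippocampal neuron median of BBP library 1 is -1.13.

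Other glial and vascular lists also had most estimates above 0. Of 12 oligodendrocyte genes 12 were above 0 with a median log2 fold change of 0.37, of 12 endothelial and mural cell genes 11 with a median of 0.18, and of 10 astrocyte genes 9 with a median of 0.13. The difference between these lists and the 32 genes was not tested. Per library, the median of the 32 genes relative to the corn oil mean was 0.20, 0.20 and 0.07 in BBP libraries 1 to 3 and -0.11, 0.01 and 0.08 in corn oil libraries 1 to 3. Corn oil library 1 was the lowest of all 6 libraries in FPKM for 11 of the 32 genes and the highest for 0. How often it was so over all tested genes was not counted. The oligodendrocyte medians were 0.56, 0.62 and -0.07 in BBP and -0.16, 0.30 and -0.11 in corn oil, and the astrocyte medians 0.12, 0.18 and 0.12 in BBP and -0.04, 0.04 and 0.01 in corn oil. Of the myelin genes, Mbp had 320, 335 and 210 FPKM in the BBP libraries and 188, 253 and 199 FPKM in the corn oil libraries.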

How the data were processed

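RNA-seq counts and FPKM of 3 BBP and 3 corn oil hippocampal libraries were read from the deposited table. Per the labels' protocols, RNA was selected with oligo(dT) and made into dUTP strand-marking paired-end libraries with molecular identifiers. Tools listed in the submitters' processing notes, with no role or order, are StringTie 2.1.6, HISAT2 2.2.1, cutadapt 1.9, edgeR, DESeq2 and UMI-tools, with the build mm10. Per the file headers, the table gives counts and FPKM per gene; the deposited counts are whole numbers but were treated as estimated counts, since low values cluster at 4, and the FPKM values deposited by the authors were used as given.

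Genes were compared across the whole table with edgeR 4.0.16 in R 4.3.3 (TMM scaling, filterByExpr, a quasi-likelihood F test on group alone, Benjamini-Hochberg over 20428 genes, threshold 0.05). Standard errors were taken as the absolute log2 fold change divided by the root of F, and 95% intervals use the t distribution with the fit's degrees of freedom. Library values on the log2 CPM scale use a prior count of 2. The scripts were tested on simulated data. Alternatives were DESeq2 1.42.0, limma 3.58.1 on log2(FPKM + 1) and log2(FPKM + 0.1) for genes with a mean of at least 1 FPKM, other size factors, no filter, counts divided by 4, a replicate block and fits without each library. The members and gene lists were chosen with earlier results of these data known. Genes given library by library were those with the smallest p in each role (3 homeostatic, 2 of each other role), those whose groups did not overlap, and others named after their values were seen. Of each other list, the 2 tested genes with the smallest p were named. Promoters are those of RefSeq (GRCm38.p6); 7 of the 32 genes overlap another gene in the deposited coordinates. Python 3.11.15 and matplotlib 3.10.9 were used for summaries and figures.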

Additional observations from a re-analysis of the deposited data

How the results depend on the processing

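Of the 32 log2 fold changes, 21 kept their sign in every alternative that gave a value, and no gene passed the adjusted threshold in any. Normalization, the filter, DESeq2, limma, the replicate block and division by 4 turned 0 signs. Leaving out 1 library turned 11 genes. Without corn oil library 1 Tyrobp was -0.08 and Gpr34 -0.04, and without corn oil library 2 Ptprc was 0.12, Siglech -0.04 and Tmem119 -0.02. Without BBP library 1 Aif1 was -0.19, Csf1r -0.06 and Gpr34 -0.02. Without BBP library 2 Cd68 was -0.03, Ptprc 0.08, Csf3r -0.01, Tyrobp -0.03 and Cd53 -0.05, and without BBP library 3 Mertk was -0.20 and Tmem119 -0.02. The other ends of these ranges were 0.26 for Mertk, 0.55 for Cd68, 0.39 for Aif1, -0.29 for Ptprc, 0.53 for Csf3r, 0.15 for Tyrobp, 0.30 for Cd53 and 0.19 for Tmem119.

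The median of the 32 genes lay between 0.14 and 0.27 with 1 library left out, the genes above 0 numbered 26 to 29, and the median was 0.12 in limma on log2(FPKM + 1), where 23 of 25 genes and 42.5% of all genes were above 0; the cause was not tested. Over all genes, DESeq2 called 4 and fits without 1 library called 0 to 3, against 0. At an unadjusted p under 0.05 edgeR counted 685 of 20428 genes and 0 of the 32. Without BBP library 1 it counted 1475 of 21072 genes and 2 of the 32. Without BBP library 2 it counted 725 of 21146 genes and 3 of the 32, and without BBP library 3 1530 of 21088 and 3. Without corn oil library 1, 2 or 3 the genes were 393 of 21155, 476 of 21133 and 462 of 21012, with 0, 0 and 1 of the 32. The difference between these shares was not tested. Cd163 and Itgax gave no value with counts divided by 4.

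The labels do not say whether the replicate numbers pair the libraries. Deviations from the group means correlated at -0.0771, 0.0756 and -0.102 for numbers 1 to 3, and only the libraries numbered 2 correlated best with each other. With 3 libraries per group, these values cannot decide whether a pairing exists. With the replicate block edgeR called 0 genes, with 494 at an unadjusted p under 0.05, and the median of the 32 genes was 0.20. Depth limits Itgax, Mrc1 and Cd163 most, with 3 to 136 counts per library.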

Other observations

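Pairs of the 32 genes lie close together in the genome. Besides P2ry12 with P2ry13 and Itgam with Itgax, Selplg lies 18 kb from Tmem119 on chromosome 5, and Fcer1g lies 165 kb from Fcgr3 on chromosome 1. Of these 4 pairs, 3 had their highest FPKM in the same library, which was BBP library 2 for P2ry12 with P2ry13 and for Fcer1g with Fcgr3, and BBP library 3 for Itgam with Itgax. Itgax had too few counts to compare, with 13 in BBP library 3 and 12 in corn oil library 2. Fcgr3 had 6.58 FPKM in BBP library 2 and 6.48 FPKM in BBP library 1. BBP library 2 was the highest for 13 of all 32 genes, so these pairs are no evidence of a link between neighbours. Selplg was highest in BBP library 2, at 6.81 FPKM, where Tmem119 was lowest, at 5.86 FPKM. 

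BBP library 2 held the highest FPKM of all 6 libraries for 13 of the 32 genes and the lowest for 8, while BBP library 1 held the highest for 9 and the lowest for 1. The share over all tested genes was not counted. These ranks are of FPKM without TMM scaling and can change with it. Mertk was lowest in BBP library 2 in FPKM. On the TMM-scaled log2 CPM scale it was lowest in BBP library 1, at -0.239 against -0.171 relative to the corn oil mean.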
